A study of Mus musculus with 33 samples.

Results

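Nodal, Gdf3, Tdgf1, Lefty1, Lefty2, Cer1, Otx2 and Fgf5 are genes of the Nodal pathway and of the primed epiblast, and all 8 were found by symbol among the 17120 genes of the count table. The 8 genes were chosen with their levels over the 11 groups in view: Cer1, Otx2 and Fgf5 were selected on their higher counts with AGN, so their difference between the 2 ligands is given as a description with no test. Tests of Cer1, Otx2 and Fgf5 against PM or between times use levels that entered this selection, and are not independent of it. No value was cited for the other 5, and their difference between ligands was tested. RNA was sequenced from 33 libraries, 3 in each of 11 groups of mouse cells grown from embryonic stem cell lines that carry the ScxGFP reporter.

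The starting group, PM, was collected at day 6 (D6) of differentiation, when the cells were labelled as paraxial mesoderm after embryoid body formation and Wnt activation with CHIR in the presence of the BMP inhibitor LDN-193189. The other 10 groups were then given TGFβ1, the Hedgehog agonist SAG and FGF2, together with either CD1530, an agonist of retinoic acid receptor γ, or AGN, an inverse agonist of retinoic acid receptors, and collected at 5 times, first at D6.25 and D6.75, next at D7.5 and D8.5, and last at D10. The 2 conditions share TGFβ1, SAG and FGF2, which PM had not received, so a difference from PM combines these factors, the ligand and time, which cannot be told apart. The study's methods also describe adding AGN or all-trans retinoic acid during Wnt activation, and which of them, if either, these PM cells received is not given in the sources used here. A difference from PM can therefore include a change of retinoid ligand as well. The study's methods name more than one reporter line and call the replicates biological, and which line gave each library is not given in the sources used here.

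Nodal is a secreted TGFβ family ligand that acts through activin receptors, a co-receptor of the EGF-CFC family and the transcription factors SMAD2 and SMAD3 with FOXH1. It maintains the epiblast, patterns the primitive streak and later marks the left side of the embryo, and it induces its own inhibitors, the Lefty proteins and Cerberus. Epiblast cells that have left the naive state and are primed for differentiation express Otx2 and Fgf5.

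On GRCm38, Nodal lies at chr10:61417972-61425338, Gdf3 at chr6:122605403-122610087, Tdgf1 at chr9:110939603-110946158 and Cer1 at chr4:82881751-82885148. Lefty1, at chr1:180935022-180938400, and Lefty2, at chr1:180893108-180899103, are neighbours. Otx2 lies at chr14:48657677-48673819 and Fgf5 at chr5:98254184-98277030. The exons of Otx2 overlap those of the antisense gene Otx2os1 by 154 bases, 3.65% of its exon length, and those of Gm49154 on the same strand by 168 bases, 3.98%. Neither has a row of its own in the count table, and no strand setting for the counting is given in the sources used here.

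RefSeq promoter windows (GRCm38.p6) were found for 5 of the 8 genes, Nodal, Tdgf1, Cer1, Otx2 and Fgf5. The 250 bases before a start site are shown for the genes that were selected together on their higher counts with AGN, in lower case with motif matches in capitals. The Cer1 window is chr4:82885152-82885401 (minus strand), that of Otx2 is 1 of 4 start sites, at chr14:48665110-48665359 (minus strand), chosen because it holds a match, and that of Fgf5 is chr5:98253934-98254183 (plus strand).
Cer1: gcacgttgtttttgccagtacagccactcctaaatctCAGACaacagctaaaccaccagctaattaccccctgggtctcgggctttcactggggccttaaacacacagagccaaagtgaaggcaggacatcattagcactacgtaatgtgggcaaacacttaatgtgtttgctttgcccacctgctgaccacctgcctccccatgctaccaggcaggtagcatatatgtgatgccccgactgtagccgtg
Otx2: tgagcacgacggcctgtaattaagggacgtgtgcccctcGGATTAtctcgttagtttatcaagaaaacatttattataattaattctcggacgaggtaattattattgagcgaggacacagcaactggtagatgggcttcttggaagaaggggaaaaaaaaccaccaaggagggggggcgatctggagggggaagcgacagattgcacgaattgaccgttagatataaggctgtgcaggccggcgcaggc
Fgf5: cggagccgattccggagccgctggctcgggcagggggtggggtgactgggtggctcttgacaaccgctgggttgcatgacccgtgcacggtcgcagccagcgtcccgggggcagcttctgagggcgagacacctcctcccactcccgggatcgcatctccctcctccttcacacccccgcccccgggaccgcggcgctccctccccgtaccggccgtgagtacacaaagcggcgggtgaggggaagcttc
The motifs searched on both strands were CAGAC (bound by SMAD proteins), AATCCACA and AATACACA (FOXH1), AGGTCA and GGTTCA (the core bound by retinoic acid receptors) and TAATCC (OTX). The Cer1 window held CAGAC, which 42.2% of all 32851 windows of this length hold, and the Otx2 window held TAATCC on the reverse strand, which 2054 of the 32851 hold. The Fgf5 window held no match. AATCCACA is found in 0.718% of windows, AATACACA in 0.895%, AGGTCA in 14% and GGTTCA in 8.85%.

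Library totals ranged from 17116084 to 38120841 counts, with a median of 19899242. AGN D8.5 replicate 1 was the deepest, and the next had 22775275. Levels are given as CPM, which is counts scaled to a common library size after TMM normalisation, in libraries of replicates 1, 2 and 3 in that order. Tests are edgeR's quasi-likelihood F test over all 17120 genes in one fit, a gene is called where its Benjamini-Hochberg adjusted p is under 0.05, and log2 differences are given with their standard error (SE).

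The label of the starting group was set against markers. In PM, Tbx6 averaged 9.56 ± 0.77 CPM (SD, n = 3) and Msgn1 3.38 ± 0.61, both markers of presomitic mesoderm, while the pluripotency genes Pou5f1 and Nanog averaged 701 ± 8.2 and 466 ± 7.6 CPM. T, the primitive streak and tailbud gene Brachyury, averaged 79.0 ± 4.0 CPM. At D6.25 Tbx6 was lower, at 3.94 CPM with CD1530 and 4.11 with AGN, and so was Msgn1, at 0.866 and 0.982. The 7 presomitic genes of the list used below summed to 57.2 to 60.8 CPM in PM. At D6.25 that sum was 72.9 to 74.6 CPM with CD1530 and 80 to 83.6 with AGN. Levels of different genes do not rank cell types, and the group is called PM here by its label only. The summed level of 10 naive and core pluripotency genes was 3390 to 3410 CPM in PM, and fell to 411 to 433 in AGN and 318 to 326 in CD1530 at D10. In these bulk samples, fewer cells of a type and less RNA per cell cannot be told apart.

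**Figure D1:**
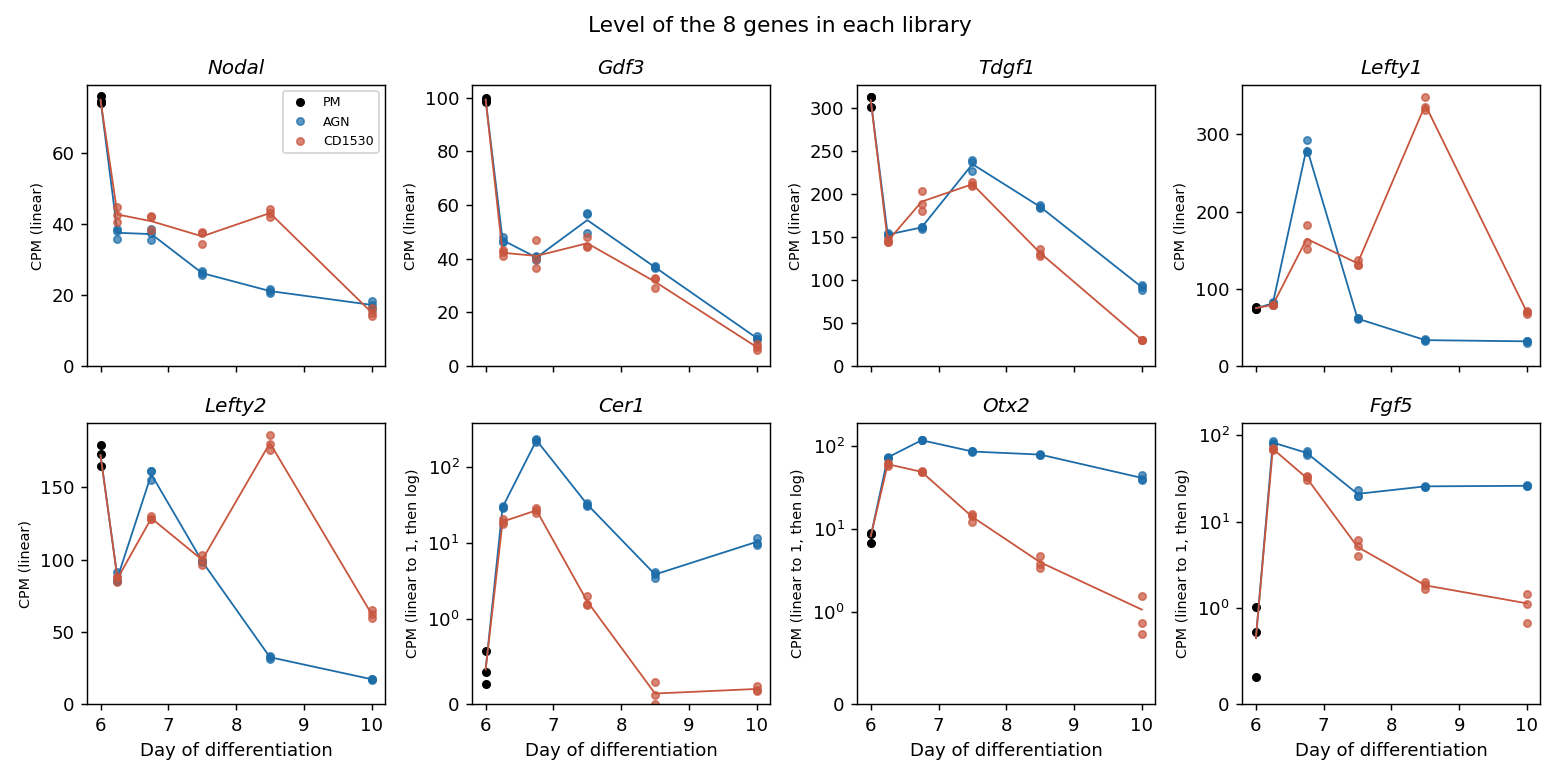
CPM of each of the 8 genes (vertical axis, linear for the first 5 panels and linear up to 1 then logarithmic for Cer1, Otx2 and Fgf5) against the day of differentiation, with 1 point for each library and lines through the group means from PM. Lefty1 peaks at D6.75 with AGN (277 to 292 CPM) and at D8.5 with CD1530 (331 to 348 CPM), while Cer1, Otx2 and Fgf5 with CD1530 end at 1.57 CPM or less.

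Nodal, the ligand itself, was highest in PM, where it stood at 74.9, 76.2 and 74.2 CPM. It fell on induction in both conditions, to 42.7, 45.0 and 40.6 CPM with CD1530 and 38.2, 35.8 and 38.8 CPM with AGN at D6.25. The log2 changes from PM were -0.81 (SE 0.05, adjusted p = 2.68e-17) and -1 (SE 0.05, adjusted p = 5.9e-20), and neither group overlapped PM. With AGN it declined at each step after D6.75, from 26.2, 26.7 and 25.8 CPM at D7.5 to 21.2, 20.6 and 21.7 by D8.5, and D10 libraries held 16.0, 17.3 and 18.5 CPM. With CD1530 it was 34.5 to 37.8 CPM at D7.5, a small fall from D6.75 (log2 -0.15, SE 0.05, adjusted p = 0.0263) whose call was lost with only the compared libraries in the fit (adjusted p = 0.143) and without CD1530 D6.75 replicate 1 or 2 or D7.5 replicate 1 (adjusted p = 0.0979, 0.0838 and 0.151). It rose to 44.3, 42.1 and 43.1 at D8.5 (log2 0.23, SE 0.06, adjusted p = 0.000785 against D7.5) and fell to 16.3, 14.1 and 15.0 at D10 (log2 -1.51, SE 0.06, adjusted p = 6.27e-23).

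Nodal was thus 2.04-fold higher with CD1530 than with AGN at D8.5 (log2 1.03, SE 0.06, adjusted p = 2.43e-18) and 1.40-fold higher at D7.5 (log2 0.48, SE 0.06, adjusted p = 1.03e-08), without overlap between the libraries. At D10 the call was in the other direction, at log2 -0.19 (SE 0.07, adjusted p = 0.0293), with overlapping libraries. That D10 call was lost on scaling by library size alone (adjusted p = 0.0884), with only the compared libraries in the fit (adjusted p = 0.0849), and without CD1530 replicate 2 or 3 or AGN replicate 2 or 3 (adjusted p = 0.15, 0.0678, 0.0606 and 0.178). In the order of its 11 group means, the 6 from CD1530 D8.5 down to CD1530 D7.5 each overlapped their neighbour, as did AGN D10 and CD1530 D10.

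Gdf3, a related ligand of the pluripotent cells and early embryo, was also highest in PM, at 98.5, 100 and 99.2 CPM. It was 42.5, 40.9 and 43.2 CPM with CD1530 and 47.9, 46.7 and 46.1 CPM with AGN at D6.25, falling by 1.23 (SE 0.06, adjusted p = 6.75e-21) and by 1.08 (SE 0.06, adjusted p = 4.83e-19) on the log2 scale. It rose again between D6.75 and D7.5 with AGN (log2 0.43, SE 0.06, adjusted p = 1.18e-06), to 57.0, 49.4 and 56.7 CPM. The same step with CD1530, to 48.0, 44.5 and 44.7 CPM, did not pass the test (log2 0.16, SE 0.06, adjusted p = 0.0564). Without CD1530 D6.75 replicate 1 it passed (log2 0.26, adjusted p = 0.000359), and so did the step from D6.25 to D6.75 (log2 -0.15, adjusted p = 0.0375).
By D10 Gdf3 was down to 8.08, 6.99 and 6.13 CPM with CD1530 and 10.0, 11.2 and 10.2 with AGN, the lowest level of either condition. The difference between ligands at D10 was -0.56 on the log2 scale (SE 0.11, adjusted p = 2.86e-05), and at D7.5 and D8.5 it was -0.25 and -0.23 (SE 0.06 and 0.07, adjusted p = 0.00243 and 0.00663). The D8.5 call was lost without CD1530 replicate 3 (log2 -0.18, adjusted p = 0.0621). Across the 11 groups 3 neighbouring pairs overlapped in the order of means.

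Tdgf1 encodes Cripto, the EGF-CFC co-receptor that Nodal needs to bind its receptors. In PM it had the highest level per kilobase of exon of the 8 genes, 118 CPM per kilobase. It was at 313, 313 and 302 CPM there, and it fell to 148, 144 and 144 with CD1530 and 152, 152 and 155 with AGN at D6.25. A partial recovery followed, to 211, 210 and 214 CPM with CD1530 and 238, 227 and 240 with AGN at D7.5. For AGN this step from D6.75 was 0.54 on the log2 scale (SE 0.04, adjusted p = 7.1e-16).
The conditions then separated, and at D10 Tdgf1 stood at 30.1, 30.8 and 30.6 CPM with CD1530 against 88.7, 92.3 and 94.5 with AGN. That is 3.01-fold lower with CD1530 (log2 -1.59, SE 0.04, adjusted p = 1.28e-29), where at D6.75 it had been higher with CD1530 (log2 0.25, SE 0.04, adjusted p = 1.2e-06). All libraries of the 2 conditions were apart at both times. In the order of its 11 means only CD1530 D6.75 and AGN D8.5 overlapped as neighbours.
A processed copy, Tdgf1-ps1, is 98.8% identical to a Tdgf1 transcript over 512 bases, and its counts were 9.74 to 13.7% of those of Tdgf1 in every library. Of the 150-base stretches of Tdgf1 0.28% are found unchanged in Tdgf1-ps1, and 1.37% of those of Tdgf1-ps1 in Tdgf1. How reads that match both were assigned is not given in the sources used here, so some exchange of counts between the pair is possible.

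Lefty1 and Lefty2 are secreted inhibitors that block Nodal and its co-receptor, and both are induced by Nodal signalling. Their transcripts are 91.4% identical over 1157 aligned bases, and no 150-base stretch (the read length) of either is found unchanged in the other. Lefty1 in PM was 73.8, 76.7 and 74.5 CPM, and at D6.75 it reached 277, 279 and 292 CPM with AGN and 182, 152 and 160 with CD1530. The steps from D6.25 were log2 1.80 (SE 0.04, adjusted p = 2.15e-30) and 1.05 (SE 0.04, adjusted p = 2.03e-22).
With AGN, Lefty1 then dropped to 60.6, 61.8 and 61.8 CPM by D7.5, and D8.5 libraries held 33.7, 35.1 and 32 CPM. With CD1530 it was 131, 137 and 131 CPM at D7.5, then rose to a second peak of 331, 335 and 348 CPM at D8.5 (log2 1.34, SE 0.04, adjusted p = 2.89e-26) before falling to 70.0, 71.3 and 67.7 at D10. The second peak with CD1530 was above all libraries of the other 10 groups.
At D8.5 Lefty1 was 10.0-fold higher with CD1530 than with AGN (log2 3.33, SE 0.05, adjusted p = 7.77e-39). At D6.75 the difference had been the other way (log2 -0.78, SE 0.04, adjusted p = 3.78e-18), and at D10 it was log2 1.12 (SE 0.05, adjusted p = 2.07e-21). Of its 10 neighbouring pairs of means, 2 overlapped.

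Lefty2 began higher, at 173, 179 and 165 CPM in PM, and fell at D6.25 to 88.3, 87.9 and 84.5 with CD1530 and 85.5, 91.4 and 85.2 with AGN. It rose at D6.75 in both conditions, to 130, 128 and 128 CPM with CD1530 and 155, 161 and 161 with AGN. At D7.5 the conditions overlapped, at 103, 96.5 and 100 CPM and 99.1, 98.4 and 98.9 CPM (log2 0.02, SE 0.04, adjusted p = 0.809).
One time point later they did not: Lefty2 was 180, 176 and 186 CPM with CD1530 and 31.4, 33 and 33.2 with AGN at D8.5. The difference was 5.57-fold (log2 2.48, SE 0.04, adjusted p = 4.47e-36), and 3.61-fold at D10 (log2 1.85, SE 0.05, adjusted p = 3.69e-29). Per kilobase of exon, Lefty1 averaged 192 and Lefty2 69.2 CPM at this CD1530 peak, while in PM Lefty1 was the lower of the pair, at 42.7 against 66.0 CPM per kilobase. Of the neighbouring means of Lefty2, 3 pairs overlapped.

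Cer1 encodes Cerberus, a secreted inhibitor of Nodal and BMP made by anterior endoderm. It was near background in PM, with 13, 5 and 7 counts (0.622, 0.236 and 0.377 CPM). At D6.25 it was 28.9, 30.2 and 29.5 CPM with AGN and 20.6, 17.7 and 18.9 with CD1530, and the changes from PM were log2 6.14 (SE 0.16, adjusted p = 6.34e-31) and 5.51 (SE 0.17, adjusted p = 3.62e-28). With AGN it peaked at D6.75, at 221, 212 and 233 CPM, a step of log2 2.91 (SE 0.07, adjusted p = 1.61e-31), where CD1530 libraries held 24.9, 28.5 and 27.2 CPM.
The fall from that peak was steep in both conditions: with AGN to 33.4, 31.9 and 30.7 CPM by D7.5, then 4.20, 3.46 and 3.97 CPM by D8.5, and with CD1530 to 1.58, 1.53 and 2.04 CPM at D7.5. With AGN Cer1 then rose again, to 11.8, 9.33 and 10.0 CPM at D10 (log2 1.40, SE 0.12, adjusted p = 1.87e-13), and with CD1530 that step gave log2 0.44 (SE 0.69, adjusted p = 0.604).
In the CD1530 libraries 2, 5 and 0 counts were left at D8.5 and 3, 4 and 3 at D10. As a description of the difference Cer1 was selected on, the ratio of depth-scaled summed counts of AGN to CD1530 was 29.6 at D8.5 (7 counts against 298, exact 95% interval 14.2 to 74.4) and 56.4 at D10 (10 against 513, 30.4 to 118), intervals that cover counting error only. Without CD1530 D8.5 replicate 2 the fitted log2 difference between ligands at that time went from -4.85 to -5.96. At D6.75 it was 8.25-fold and at D7.5 18.5-fold lower with CD1530. The call of lower Cer1 than in PM at D10 with CD1530 (adjusted p = 0.0327) was lost without PM replicate 1 or CD1530 replicate 1 or 3 (adjusted p = 0.25, 0.0904 and 0.0691), and that at D8.5 (adjusted p = 0.00853) without PM replicate 1 or CD1530 replicate 3 (adjusted p = 0.0938 and 0.071).

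Otx2, a homeobox factor of the primed epiblast and anterior head, stood at 8.76, 6.85 and 8.94 CPM in PM. It rose at D6.25 to 62.8, 60.4 and 57.9 CPM with CD1530 (log2 2.89, SE 0.08, adjusted p = 5.39e-30) and 71.4, 72.1 and 74.7 with AGN (log2 3.16, SE 0.08, adjusted p = 1.9e-31). With AGN it climbed on to 117, 118 and 117 CPM at D6.75 and stayed at 78.0 CPM or more through D8.5, and 39.4, 39.9 and 44.5 remained at D10.
With CD1530 it fell at each step, to 48.0, 48.8 and 49.6 CPM at D6.75, and to 14.4, 15.2 and 12.3 at D7.5. The D8.5 libraries held 3.80, 3.41 and 4.72 CPM, and those of D10 0.758, 0.881 and 1.57. By D8.5 it was below its level in PM (log2 -1.04, SE 0.12, adjusted p = 5.93e-10). Described without a test, Otx2 was 2.40-fold lower with CD1530 at D6.75, 6.14-fold lower at D7.5, 19.9-fold at D8.5 and 38.8-fold at D10. None of its neighbouring group means overlapped.

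Fgf5, a growth factor that marks the primed epiblast, gave 6, 16 and 19 counts in PM (0.287, 0.756 and 1.02 CPM). It was already at its highest at D6.25, with 80.3, 85.8 and 79.6 CPM with AGN (log2 6.91, SE 0.13, adjusted p = 3.12e-35) and 68.6, 67.6 and 71.4 with CD1530 (log2 6.66, SE 0.13, adjusted p = 1.62e-34). With AGN it came down to 19.7, 19.5 and 23.4 CPM at D7.5, rose slightly to 25.9, 25.3 and 25.3 at D8.5 (log2 0.29, SE 0.08, adjusted p = 0.00345), and was 25.8, 25.7 and 26.1 at D10.
With CD1530 the decline went on, from 33.2, 29.9 and 32.5 CPM at D6.75 to 5.17, 4.03 and 6.07 at D7.5. The D8.5 libraries held 2.01, 1.65 and 1.83 CPM, and those of D10 1.46, 1.10 and 0.843. The last of these steps (log2 -0.67, SE 0.25, adjusted p = 0.0204) lost its call without CD1530 D8.5 replicate 1 or CD1530 D10 replicate 2 or 3 (adjusted p = 0.0746, 0.0525 and 0.114). The D10 level overlapped PM, and its call against PM (log2 0.76, SE 0.30, adjusted p = 0.0217) was lost on scaling by library size alone (adjusted p = 0.052), with only the compared libraries in the fit (adjusted p = 0.0709), and without PM replicate 1 or CD1530 replicate 1 (adjusted p = 0.234 and 0.169). Described without a test, Fgf5 was 1.94-fold lower with CD1530 than with AGN at D6.75, 4.09-fold at D7.5, 13.9-fold at D8.5 and 22.4-fold at D10.

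**Figure D2:**
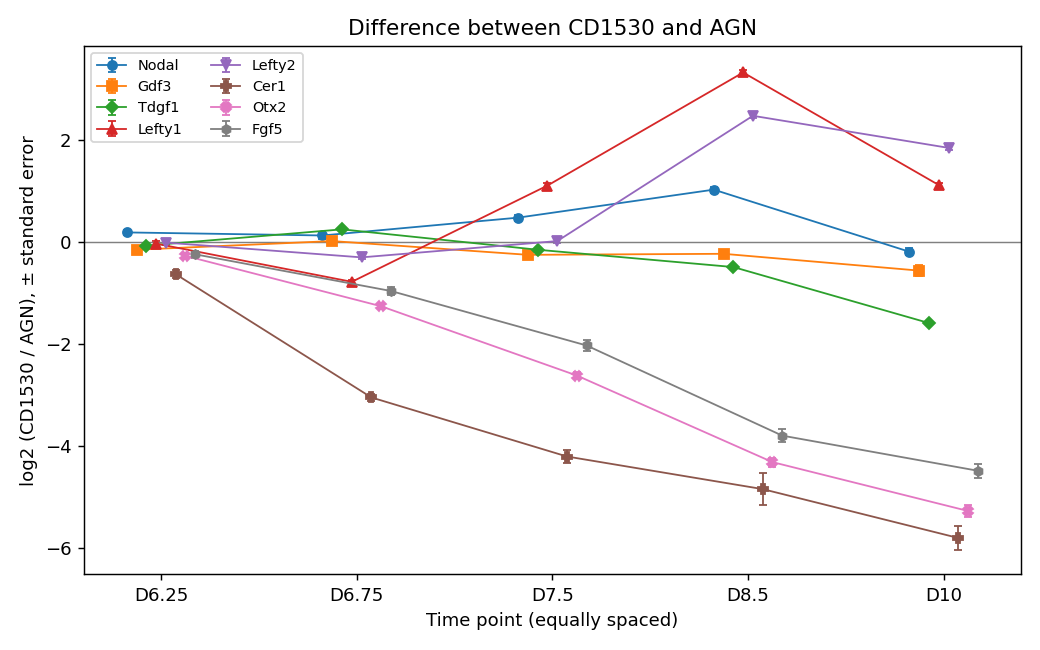
The log2 ratio of CD1530 to AGN for each of the 8 genes (vertical axis, with bars for the standard error) at the 5 time points, drawn equally spaced. Lefty1 and Lefty2 reach 3.33 and 2.48 at D8.5, while Cer1, Otx2 and Fgf5, which were selected on this difference, go down to -5.81, -5.28 and -4.49 at D10.

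Against PM, the number of the 8 genes called has to be read beside how many of all genes were called, since the comparisons share the 3 PM libraries and most genes moved. With CD1530, 7, 8, 8, 7 and 8 of the 8 were called at the 5 times in order, where 67.8%, 71.9%, 74.1%, 77.4% and 83.2% of all genes were. With AGN all 8 were called at each time, where 68.1%, 73.5%, 71.5%, 76.0% and 82.0% of all genes were. The 8 include Cer1, Otx2 and Fgf5, which were selected on their higher counts with AGN. These counts, and those between successive times below, are therefore not independent of the selection. The exceptions with CD1530 were Lefty1 at D6.25 (log2 0.08, SE 0.05, adjusted p = 0.136) and Lefty2 at D8.5 (log2 0.07, SE 0.04, adjusted p = 0.116).
Without CD1530 D10 replicate 1, the count at that time was 5 and not 8, the calls of Lefty1, Cer1 and Fgf5 being lost. The Lefty1 calls at D10 with CD1530 (log2 -0.11, SE 0.05, adjusted p = 0.0352) and at D6.25 with AGN (log2 0.11, SE 0.05, adjusted p = 0.0331) were among the weakest. The D10 call was lost without PM replicate 2 or 3 or CD1530 replicate 1 or 3 (adjusted p = 0.0541, 0.0513, 0.0586 and 0.126). The D6.25 call was lost without any 1 of the PM libraries, without AGN replicate 1 or 3 (adjusted p from 0.0654 to 0.113), and in DESeq2 (adjusted p = 0.115).

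Between successive times, 6, 7, 8 and 7 of the 8 were called with CD1530 for the 4 steps in order, beside 45.9%, 34.2%, 36.5% and 57.3% of all genes. With AGN 6, 8, 7 and 6 were called, beside 43.7%, 30.3%, 42.1% and 59.4%. At the last step 7 fell and 0 rose with CD1530, where 29.9% of all genes fell and 27.4% rose. With AGN 5 fell and 1, Cer1, rose at that step, where 29.5% of all genes fell and 29.9% rose.

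Between the ligands, 0 of the 5 genes that could be tested were called at D6.25, where 1.92% of all genes were. At an unadjusted p under 0.05 there were 2, Nodal and Gdf3, and DESeq2 called 0. With only the compared libraries in the fit Nodal was called there (adjusted p = 0.0247). At the 4 later times the counts were 3, 4, 5 and 5 of 5, beside 18.0%, 26.9%, 40.0% and 46.6% of all genes.
The 3 libraries of one ligand lay all above the 3 of the other for 6, 6, 7, 8 and 7 of the 8 genes at the 5 times, 3 of which were selected on it, and for 21.1%, 26.3%, 42.5%, 51.4% and 57.0% of all genes. The change of the ligand difference over the 5 times, tested as an interaction, was called for all 5 of the tested genes and for 48.8% of all genes.

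The genes around Nodal were described by 14 lists, chosen with earlier results known, that hold 97 different genes of the table. Some genes stand in several lists (T in 3). In all the counts at D10 that follow, 22.7% of all genes were higher with CD1530 and 24.0% lower, 46.6% together. The receptor and processing list had 0 higher and 3 lower of 6 with CD1530 at D10, with a median log2 difference of -0.14 beside -0.019 over all genes. Cfc1, the second EGF-CFC co-receptor, was among the lower ones, at 0.0902 against 1.31 CPM (log2 -3.79, SE 0.47, adjusted p = 6.16e-09), and it had been 15.8 ± 0.81 CPM with AGN and 14.7 ± 0.49 with CD1530 at D6.25 (SD, n = 3).
Of the 5 transducers 2 were higher and 3 lower at D10. Smad3 was higher (114 against 72.5 CPM, log2 0.65, SE 0.05, adjusted p = 8.86e-15) and Foxh1, the DNA-binding partner of SMAD2 and SMAD3, lower (7.28 against 17.4 CPM, log2 -1.26, SE 0.09, adjusted p = 5.79e-15). Of 5 other ligands that signal through SMAD2 and SMAD3, 4 were higher with CD1530 and 0 lower, with Tgfb2 at 80.8 against 42.9 CPM (log2 0.91, SE 0.05, adjusted p = 1.78e-19). Of 7 further inhibitors of the pathway 4 were higher and 1, Tgif1, lower, with Dact2 at 16.1 against 9.15 CPM (log2 0.81, SE 0.10, adjusted p = 9.61e-09).

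Of 8 genes known as Nodal targets in the embryo, all 8 were lower with CD1530 at D6.75 (median log2 -0.75, beside -0.007 over all genes, of which 10.0% were lower), among them the organizer gene Gsc at 19.3 against 42.7 CPM and the axial gene Lhx1 at 44.9 against 111 CPM. This is the time at which Lefty1 and Lefty2 were also lower with CD1530. At D8.5 only 2 of the 8 were lower with CD1530, 1 was higher and 5 were not called (median log2 -0.2). Of all genes 19.6% were lower and 20.4% higher at that time. The 2 lower ones were T (2.05 against 9.31 CPM, log2 -2.18, SE 0.12, adjusted p = 7.82e-19) and Lhx1 (1.39 against 2.62 CPM, log2 -0.92, SE 0.20, adjusted p = 0.000291).
At D10 6 of the 8 were lower with CD1530 and 2 higher (median log2 -1.81). T was lower, at 0.503 against 27.1 CPM (log2 -5.74, SE 0.14, adjusted p = 1.21e-31), and Sox17 higher, at 4.49 against 2.67 CPM (log2 0.75, SE 0.18, adjusted p = 0.000723).

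Of the 10 other primed epiblast genes 1 was lower with CD1530 and 0 higher at D6.25, beside 0.695% and 1.23% of all genes. At D6.75 3 were lower and 3 higher (median log2 -0.06), beside 10.0% and 7.94% of all genes. At D7.5 6 were lower and 0 higher (median log2 -0.38, beside 0.008 over all genes, of which 11.8% were lower and 15.2% higher). The counts were 8 lower and 0 higher at D8.5 (median log2 -0.72, beside 0.001 over all genes, 19.6% lower and 20.4% higher), and 8 lower and 1 higher at D10 (median log2 -0.80). Dnmt3b, a de novo DNA methyltransferase, was already 164 against 333 CPM at D6.75 (log2 -1.02, SE 0.04, adjusted p = 4.15e-23), and 87.6 ± 2.5 CPM with CD1530 and 874 ± 33 with AGN at D8.5 (SD, n = 3; log2 -3.32, SE 0.04, adjusted p = 7.57e-41). Pou3f1, a POU factor of the primed epiblast, was 25.2 ± 2.7 against 84.8 ± 6.1 CPM (log2 -1.76, SE 0.09, adjusted p = 3.45e-16). The one higher at D10 was Sox3 (24.8 against 6.93 CPM, log2 1.84, SE 0.10, adjusted p = 4.15e-19). Of 10 naive and core pluripotency genes 4 were higher and 4 lower at D10, with Pou5f1 at 26.6 against 149 CPM (log2 -2.49, SE 0.06, adjusted p = 1.44e-32) and Tfcp2l1 at 20.5 against 10.3 CPM.

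Markers of the cell types that make these genes are given beside them, and their part in the levels was not tested. The summed level of 9 anterior endoderm genes was 16.1 to 19.6 CPM in PM, 346 to 356 with AGN and 316 to 326 with CD1530 at D6.25, and 277 to 301 and 194 to 204 at D6.75, when Cer1 peaked. At D6.75 7 of the 9 were lower with CD1530, beside 10.0% of all genes. At D10 5 were higher and 3 lower, with sums of 62.7 to 70.5 CPM with AGN and 121 to 127 with CD1530. Foxa1 was among the higher ones at D10 (79.7 against 16.1 CPM) and made up most of the CD1530 sum. The lower ones were Foxa2 (4.28 against 14.1 CPM), Cxcr4 (10.8 against 18.4 CPM) and Dkk1 (1.92 against 6.97 CPM). Sox17, an endoderm factor, averaged 80.9 ± 1.2 CPM with AGN and 67.5 ± 1.1 with CD1530 at D6.25 (SD, n = 3).
Of 7 node and notochord genes 6 were lower with CD1530 and 0 higher at D10, with sums of 21.9 to 25.7 against 104 to 109 CPM. Of 8 anterior neural genes, a domain that also expresses Otx2, 3 (Six3, Hesx1 and Rax) were lower with CD1530 and 0 higher at D6.75. The shares of all genes at D6.75 were 10.0% lower and 7.94% higher. At D10 5 of the 8 (Sox1, Pax6, Lhx2, En1 and Sox2) were higher with CD1530 and 2 (Six3 and Hesx1) lower. Sox2 also stands in the list of naive and core pluripotency genes. Sox1 was 16.0 against 0.367 CPM (log2 5.43, SE 0.24, adjusted p = 2.39e-22) and Hesx1, a homeobox gene of the anterior neural plate, 0.322 against 1.09 CPM.
Of 10 primitive streak and tailbud genes 3 were higher and 7 lower, with Cdx1 at 8.76 against 0.0795 CPM. Of 7 presomitic genes 2 were higher and 2 lower, and of 7 somite genes 3 and 3. Of 6 tendon and cartilage genes 0 were higher and 5 lower, with Acan, the cartilage proteoglycan aggrecan, at 4.66 against 215 CPM (log2 -5.53, SE 0.09, adjusted p = 1.33e-37).

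**Figure D3:**
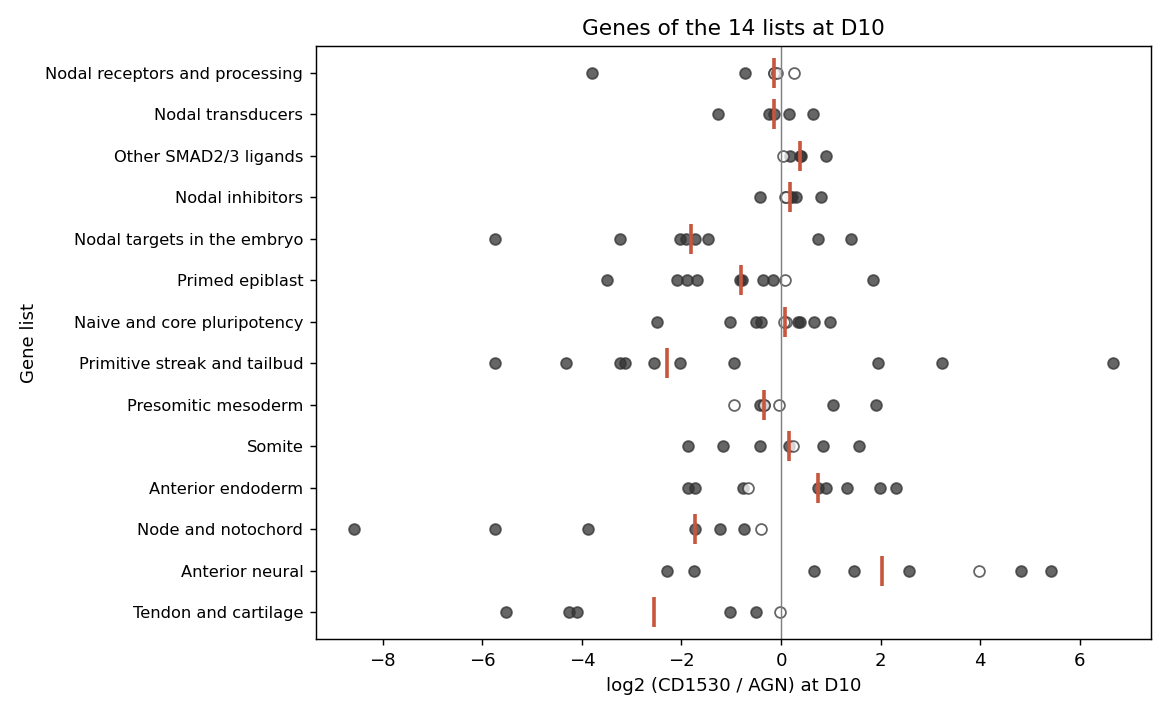
The log2 ratio of CD1530 to AGN at D10 (horizontal axis) for each gene of the 14 lists, 1 list per line, with filled points for genes called, open points for genes not called and a red bar at the list's median. The Nodal targets have their median at -1.81 and the primed epiblast genes at -0.80.

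**Figure D4:**
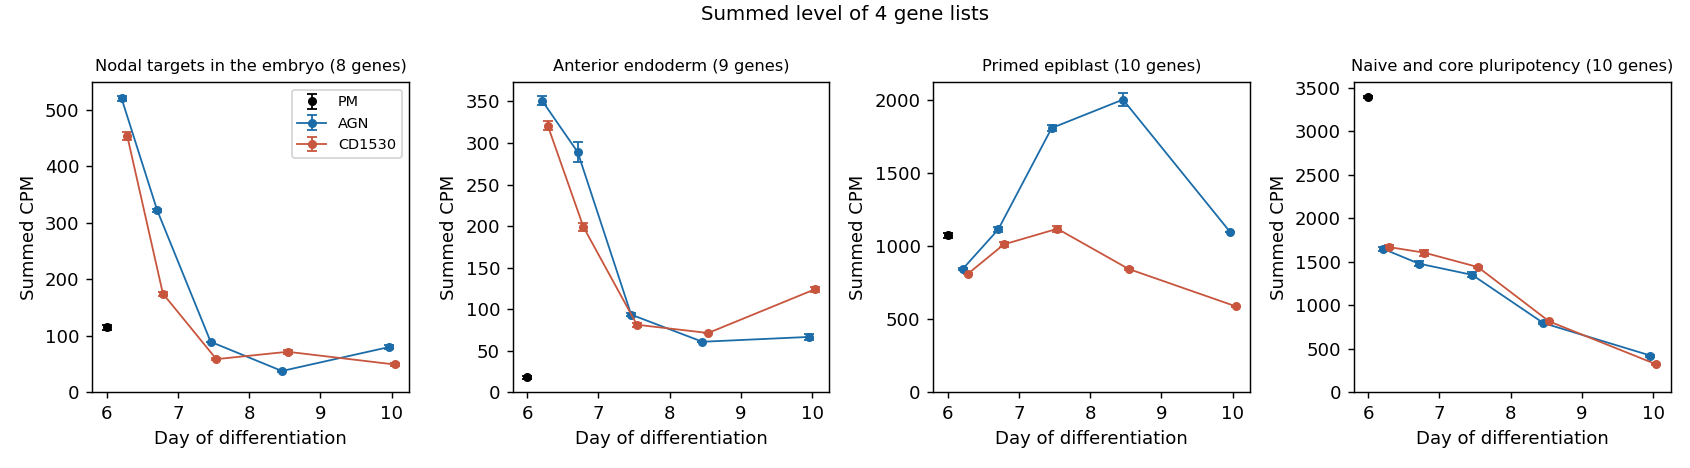
Summed CPM of 4 of the lists (vertical axis, from 0) against the day of differentiation, with bars from the lowest to the highest of the 3 libraries and points at the middle of that range. The anterior endoderm sum is highest at D6.25 in both conditions, and the primed epiblast sum is highest at D8.5 with AGN (1960 to 2050 CPM) and at D7.5 with CD1530 (1100 to 1140 CPM). The largest parts of that AGN sum at D8.5 were Dnmt3b (874 CPM) and Dnmt3a (396 CPM).

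As a description over the 11 group means, which share libraries with every comparison above, Otx2 and Fgf5 had a Pearson r of 0.91, Cer1 and Fgf5 0.88, Cer1 and Otx2 0.86, Gdf3 and Tdgf1 0.93, and Lefty1 and Lefty2 0.81. Cer1, Otx2 and Fgf5 were selected together on their higher counts with AGN in these same groups. Their high r with one another follows in part from that selection. Nodal was closest to Gdf3, at 0.83, and had an r of 0.02 with Cer1 and 0.03 with Otx2. Among 12267 genes compared, the pattern most like Nodal was that of Vps54 (0.964), like Gdf3 that of Rif1 (0.992), like Tdgf1 that of its copy Tdgf1-ps1 (0.998) and then L1td1 (0.991). The nearest to Lefty1 was Dusp28 (0.933), to Lefty2 Pawr (0.937), to Cer1 Corin (0.942), to Otx2 H3f3c (0.956) and to Fgf5 Phactr1 (0.971).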

How the data were processed

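RNA from 33 mouse libraries in 11 groups of 3 was measured by paired-end RNA sequencing. The authors deposited raw counts per gene, made per the study's methods with STAR on GRCm38 and featureCounts, and the annotation release, strand setting and treatment of reads with several matches are not given in the sources used here. Groups came from the deposited labels. The 8 genes and the 14 gene lists were chosen with earlier results of these data known. Most genes named from a list at D10 are those with the largest called difference in a direction, among genes averaging at least 1 CPM. Not every such gene is named. Sox17 and the further endoderm and neural genes named at D10 were chosen after their values were seen. So were the genes named at other times. The values of 1 gene of the lists are not reported here.

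The fits used edgeR 4.0.16 (R 4.3.3): filterByExpr (which removed no gene), TMM scaling, and the robust quasi-likelihood F test in 1 fit of 11 group means, with Benjamini-Hochberg adjustment over 17120 genes in each of 23 contrasts and in the interaction of ligand with time. The standard error is the log2 difference divided by the square root of F. The procedure was tested on simulated counts. The alternatives were DESeq2 1.42.0, other scaling, other filters, a fit without robust estimation, a replicate block, only the compared libraries, and each library left out. Transcripts were compared with blastn 2.17.0, gene positions are from GENCODE on GRCm38, and figures were drawn with matplotlib 3.10.9. Total counts of 17116084 to 38120841 per library set the precision. The p-values measure the spread between replicates, which the study's methods call biological and the labels only number. edgeR's common estimate of the variation between replicates was 4.68%.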

Additional observations from a re-analysis of the deposited data

Results flagged for a closer look

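The difference between CD1530 and AGN changed over the 5 time points for each of the 5 tested genes, by the interaction of ligand with time in edgeR's quasi-likelihood F test. The adjusted p was 2.38e-36 for Lefty1, 3.59e-34 for Lefty2, 2.53e-26 for Tdgf1, 5.15e-14 for Nodal and 0.00251 for Gdf3, beside 48.8% of all genes called. For Lefty1 the log2 difference went from -0.78 at D6.75 to 3.33 at D8.5, for Lefty2 from -0.30 to 2.48 and for Tdgf1 from 0.25 at D6.75 to -1.59 at D10. Nodal went from 1.03 at D8.5 to -0.19 at D10, and Gdf3 stayed between -0.56 and 0.02.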

How the results depend on the processing

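Of the counts of genes called, all but 3 stayed within 1.5 times under the alternatives that left out no single library, and those 3 came with only the compared libraries in the fit. Between ligands at D6.25, 1 of the 5 tested genes and 22 of the listed genes were then called, against 0 and 11, and at D6.75 32 listed genes against 54. Such a fit has fewer libraries to estimate the spread. The counts went up at D6.25 and down at D6.75, and the cause of these changes was not tested. Leaving out 1 library moved the listed genes called at D6.25 over 6 to 11 and the genes called at D10 with CD1530 against PM over 5 to 8. Fgf5 from D8.5 to D10 with AGN, at log2 0.02, became -0.08 on scaling by library size alone, which moved the median of all genes by up to -0.15 (AGN D10 against PM). The other changes of sign came on leaving out 1 library from differences that were not called: Lefty2 between ligands at D6.25 (-0.03 to 0.03) and D7.5 (-0.01 to 0.04), Gdf3 between ligands at D6.75 (-0.08 to 0.10) and from D6.25 to D6.75 with CD1530 (-0.15 to 0.04), Nodal from D6.25 to D6.75 with AGN (-0.05 to 0.02) and Cer1 from D8.5 to D10 with CD1530 (-0.09 to 1.55). The cause was not tested. Replicate numbers are shared between groups, but of 165 same-numbered pairs of libraries only 2 correlated above 0.1 (range -0.17 to 0.14). These correlations over all genes gave no sign that the numbers pair the samples, but could miss pairing that affects few genes. The replicate block gave 10 listed genes called at D6.25 against 11, and Gdf3 from D6.75 to D7.5 with CD1530 passed under it (log2 0.16, adjusted p = 0.0369). Depth limits Cer1 with CD1530 at D8.5 and D10, where 7 and 10 counts were left in all.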
